A study of Mus musculus with 2 samples.

Results

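The p53 pathway was followed through 10 mouse genes in primary hepatocytes of oil-injected and CCl4-injected mice. The genes are Trp53 itself, its regulator Mdm2, the cell cycle genes Cdkn1a, Cdkn2a, Cdkn2b, Ccng1 and Gadd45a, and the cell death genes Bax, Bbc3 and Phlda3. They were taken from a list of symbols, and all 13 of their transcripts in the mRNA table were kept, out of 27457 transcripts and 20317 genes with a symbol. RNA sequencing gave 1 library from mice injected intraperitoneally with oil (the control) and 1 library from mice injected intraperitoneally with CCl4, a solvent whose metabolism injures hepatocytes and whose repeated use leads to liver fibrosis. Both came from wild-type C57BL/6J mice, which the methods describe as young males, and the hepatocytes were obtained by enzyme perfusion of the liver and a density gradient. The CCl4 solution was 20% in mineral oil, given 2 times a week at 2.5 ml CCl4 per kilogram, for 8 weeks by the labels and for a shorter course by the methods. The labels do not say how many mice entered each library. With 1 library each, the differences below have no replicate check, and no p-value is given. The comparison asks which genes of this pathway differ between hepatocytes of CCl4-injected and control mice.

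The p53 protein is a transcription factor that is held at a low level by Mdm2, a ubiquitin ligase that p53 itself induces. After DNA damage and other stress p53 accumulates and switches on genes that stop the cell cycle, such as Cdkn1a, and genes that open the mitochondrial route to cell death, such as Bax and Bbc3. Its activity is controlled largely at the protein level, which RNA does not show. Cdkn2a and Cdkn2b encode inhibitors of the cyclin D kinases, and Cdkn2a also encodes an inhibitor of Mdm2.

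The promoter windows of the genes were read first, because p53 acts by binding DNA. RefSeq windows of GRCm38.p6, each from 250 bases before to 50 bases after an annotated start site, matched all 10 genes with 14 windows. They were searched on both strands for the p53 decamer consensus, which reads the same on both strands. It was found in 6 of the 14 windows, those of Trp53, Mdm2, Cdkn1a, Ccng1, Gadd45a and Bax, against 8.36% of all 32851 windows. A pair of decamers at most 13 bases apart was found only in the first window of Cdkn1a among the 14, against 0.0731% of all windows. The first window of Cdkn1a and the window of Phlda3 are shown whole because these genes had the lowest and the highest change of the 8 that could be compared. Capitals mark the decamers, and the window of Phlda3 holds none. The Cdkn1a window is chr17:29090729-29091028 and the Phlda3 window chr1:135765835-135766134, both on the plus strand.
Cdkn1a: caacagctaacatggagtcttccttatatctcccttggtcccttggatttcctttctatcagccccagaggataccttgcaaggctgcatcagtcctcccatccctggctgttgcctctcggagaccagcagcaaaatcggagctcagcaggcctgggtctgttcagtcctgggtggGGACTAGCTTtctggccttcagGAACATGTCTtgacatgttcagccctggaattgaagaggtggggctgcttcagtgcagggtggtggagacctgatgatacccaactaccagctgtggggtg
Phlda3: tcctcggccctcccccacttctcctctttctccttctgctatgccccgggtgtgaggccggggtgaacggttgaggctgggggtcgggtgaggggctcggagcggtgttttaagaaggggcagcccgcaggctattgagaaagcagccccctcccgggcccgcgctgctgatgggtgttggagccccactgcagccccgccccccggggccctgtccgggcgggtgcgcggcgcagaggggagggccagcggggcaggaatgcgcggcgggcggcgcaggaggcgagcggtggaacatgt
The decamers of the other genes are shown with 10 bases on each side, 5′ to 3′ on the strand of the gene. They lie at chr11:69580274-69580303 (plus strand) for Trp53, chr10:117710925-117710954 (minus strand) for Mdm2, chr11:40755452-40755481 (minus strand) for Ccng1, chr6:67037428-67037457 (minus strand) for Gadd45a and chr7:45467080-45467109 (minus strand) for Bax.
Trp53: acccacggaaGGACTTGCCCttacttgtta
Mdm2: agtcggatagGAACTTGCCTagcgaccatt
Ccng1: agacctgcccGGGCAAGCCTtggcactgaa
Gadd45a: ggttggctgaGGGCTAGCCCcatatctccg
Bax: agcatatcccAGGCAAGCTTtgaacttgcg
The motif GGGCGG, a GC box, was found in 11 of the 14 windows, with 8 of the genes, against 35.7% of all windows. TATAAA was found in 1 window, that of Trp53, against 13.6% of all. These matches describe the letters of the windows and not binding, and known p53 sites outside the windows, such as those in the first intron of Mdm2, were not searched.

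Levels are RPKM, reads scaled to transcript length and library size, and a level that falls short of 1 RPKM is listed as 0. Transcripts listed above 0 in both libraries were compared as the log2 fold change of CCl4 over oil, with 0.1 RPKM added to each value. A change of 1 or more on this scale, in either direction, was called higher or lower. No fold is given against a listed 0. The read totals recovered from the steps between RPKM values of short RefSeq RNAs were 57992583 for oil and 64655533 for CCl4, so that 1 RPKM stands for 58.0 and 64.7 reads per kilobase of transcript. Reads per transcript were recovered as lower bounds, and the intervals beside them cover counting error only. The median gene had a log2 fold change of 0.30, which is contained in the values below unless another scaling is named.

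Trp53 (chr11:69580348-69591873) was at 5.50 RPKM in oil and 8.23 in CCl4 for NM_011640. The second transcript, NM_001127233, was at 5.23 and 7.85 RPKM. Both stood higher in CCl4 by less than the fold that counts as a call, with log2 fold changes of 0.57 and 0.58. They rest on at least 565 and 943 reads, and at least 567 and 948 reads, and counts this alike arise where transcripts share most of their reads, so they are not taken as separate measurements. Counting error places the log2 ratio of NM_011640 between 0.43 and 0.74 (95% exact Clopper-Pearson interval). Among all genes compared, 32.1% had a larger log2 fold change than Trp53.

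Mdm2 (chr10:117688875-117710758), which both limits p53 and answers to it, was at 7.91 RPKM in oil and 9.75 in CCl4. The change was 0.30 on the log2 scale, with at least 1388 and 1908 reads and a counting interval from 0.20 to 0.40. It stood in the middle of the genes, 49.8% of which had a larger log2 fold change, and with the libraries scaled to the median transcript its value was -0.02.

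**Figure D1:**
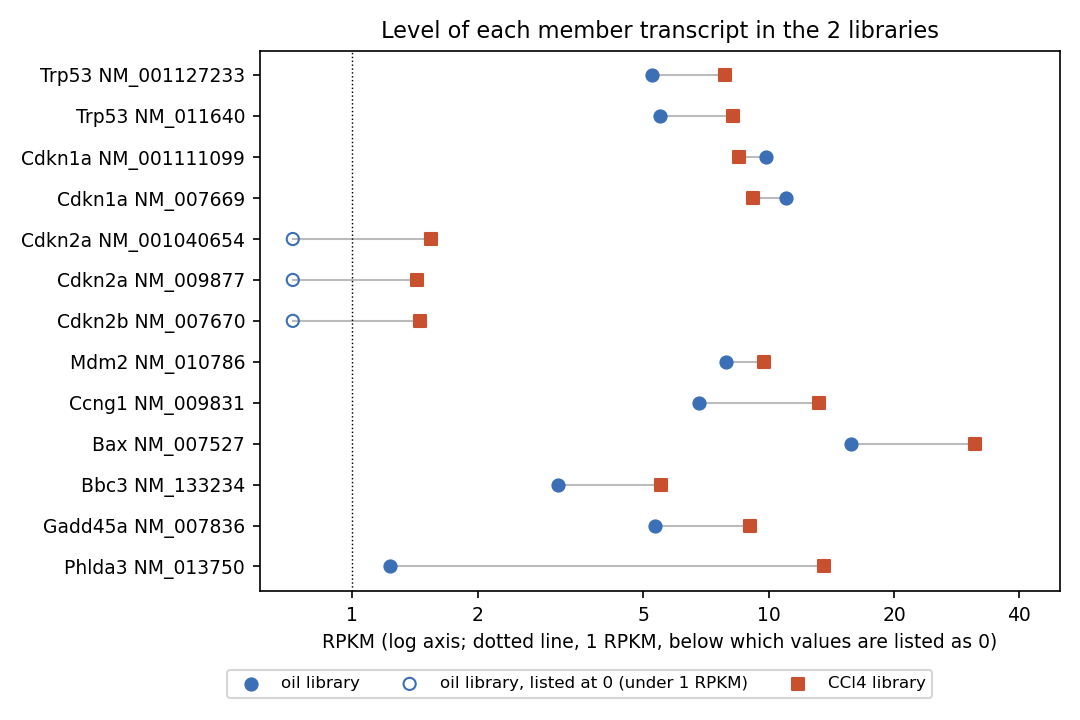
RPKM of the 13 member transcripts (rows) in the oil library (circles) and the CCl4 library (squares) on a log axis, with open symbols for values listed at 0. Phlda3 has the widest gap, from 1.23 to 13.6 RPKM, and the Cdkn1a transcripts are the only ones with the oil value above the CCl4 value.

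Cdkn1a (chr17:29090979-29100722) encodes p21, the kinase inhibitor through which p53 halts cells before DNA replication. It was at 11.0 RPKM in oil and 9.19 in CCl4 for NM_007669, and at 9.84 and 8.51 RPKM for NM_001111099. Cdkn1a is the single member with a lower level in the CCl4 library, and the log2 fold changes of -0.26 and -0.21 are far from a call. The reads were at least 1218 and 1135 for NM_007669, with a counting interval from -0.38 to -0.14, and at least 1105 and 1065 for NM_001111099. Relative to the median transcript the value of NM_007669 was -0.58, and 79.0% of the genes had a larger log2 fold change. Trp53cor1, the p53-responsive lncRNA that lies 11853 bases from Cdkn1a, was listed at 0 in both libraries.

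Ccng1 (chr11:40748552-40755309), cyclin G1, is a p53 target that brings a phosphatase to Mdm2. It was at 6.80 RPKM in oil and 13.2 in CCl4. The log2 fold change of 0.95 lay just under the call, with at least 1376 and 2983 reads and a counting interval from 0.87 to 1.05. Gadd45a (chr6:67035096-67037407), a stress gene that acts on the G2 checkpoint and on DNA repair, was at 5.34 RPKM in oil and 9.03 in CCl4, with a log2 fold change of 0.75. Its reads, at least 379 and 715, gave a counting interval from 0.58 to 0.94. The annotated lncRNA E230016M11Rik overlaps Gadd45a and was at 1.23 and 2.39 RPKM, and the strand used in counting is not given in the sources used here, so reads of the overlap cannot be told apart.

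Cdkn2a (chr4:89274473-89294619) and Cdkn2b (chr4:89306289-89311032) are neighbouring genes whose products build up in senescent cells. Both were listed at 0 in the oil library and just above the 1 RPKM limit in the CCl4 library. The Cdkn2a transcripts NM_001040654 and NM_009877 were at 1.55 and 1.43 RPKM there, and Cdkn2b was at 1.45 RPKM. Reads that the Cdkn2a transcripts share cannot be told apart here, so their levels are not taken as separate measurements. An oil value just under 1 RPKM would also be listed as 0, so the size of these differences is not known. Of all genes, 5.72% were listed at 0 in oil only and 0.792% at 0 in CCl4 only, and the median of the former was 1.57 RPKM in the CCl4 library, close to the values of both genes.

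Bax (chr7:45461695-45466903) encodes the protein that forms pores in the outer mitochondrial membrane. It had the highest level of the members in both libraries, with 15.7 RPKM in oil and 31.3 RPKM in CCl4. The log2 fold change was 0.99, directly under the call, with at least 793 and 1756 reads and a counting interval from 0.87 to 1.11, which includes the limit. Bbc3 (chr7:16308398-16318334) encodes PUMA, a BH3-only protein that releases Bax from its inhibitors. It was at 3.12 RPKM in oil and 5.51 in CCl4, with a log2 fold change of 0.80. Its at least 357 and 704 reads gave a counting interval from 0.64 to 1.01.

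Phlda3 (chr1:135766085-135769134), a p53 target that blocks the membrane recruitment of the survival kinase AKT, was the only member past the fold. It was at 1.23 RPKM in oil and 13.6 in CCl4, with a log2 fold change of 3.36. Its reads, at least 105 and 1291, gave a log2 ratio of 3.46 with a counting interval from 3.18 to 3.76. Only 0.215% of the genes had a larger log2 fold change. In the oil library Cdkn1a was 8.91 times the level of Phlda3 per length, and in the CCl4 library 0.675 times. The summed level of stellate cell and myofibroblast markers, described further on, was 77.0 RPKM in oil and 903 in CCl4, and its part in the change of Phlda3 was not tested.

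**Figure D2:**
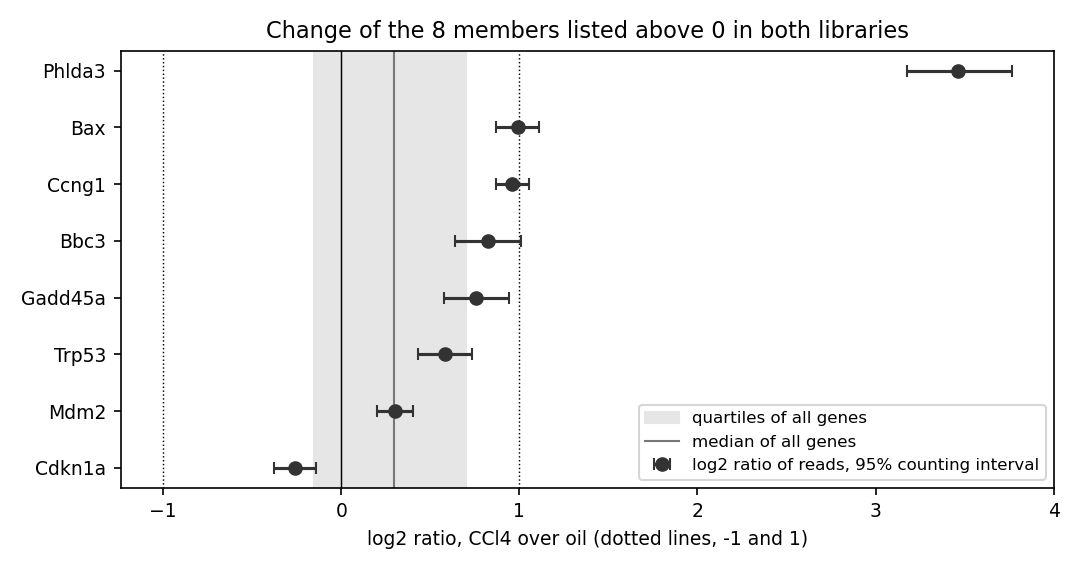
Log2 ratio of recovered reads, CCl4 over oil, for the 8 members listed above 0 in both libraries (points, with 95% counting intervals), beside the median of all genes at 0.30 and the middle range of all genes from -0.15 to 0.70 in grey. Cdkn1a lies below 0, Mdm2 at the median gene, Ccng1 and Bax at the call limit of 1, and Phlda3 far beyond it.

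Of the 8 members with a fold, 1 was called higher and 0 lower, or 12.5% higher against 14.3% higher and 5.48% lower among the 10689 genes compared. The share of members called is near the background in this setting. Library sums were also made equal without the 10 most abundant transcripts, here and wherever equal sums are named. Phlda3, Bax and Ccng1 were then called, 3 of the 8 members against 19.3% of all genes. With the libraries scaled to the median transcript it was 1 of 8 against 7.59%. By transcript, 1 of the 10 with a fold was called higher, against 14.4% higher and 5.3% lower of all 14854. None of the members was listed at 0 in both libraries, against 40.9% of all genes. Without the call, 7 of the 8 had a log2 fold change above 0, against 67.6% of all genes. Their median was 0.78, and 0.75 without Phlda3, against 0.30 for all genes and an upper quartile of 0.70. By level per length, the order in the oil library was Bax, Cdkn1a, Mdm2, Ccng1, Trp53, Gadd45a, Bbc3 and Phlda3. In the CCl4 library it was Bax, Phlda3, Ccng1, Mdm2, Cdkn1a, Gadd45a, Trp53 and Bbc3, with Cdkn2a and Cdkn2b last in both. With 1 library per condition the spread between samples is not known, so neighbours in these orders are not shown to differ. Bax was 1.43 times the level of Cdkn1a in the oil library and 3.40 times in the CCl4 library.

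Among 24 other p53 targets, 5 of the 19 listed above 0 in both libraries were called higher and 1 lower, against 14.3% and 5.48% of all genes. The log2 fold changes of these 5 lay between 1.01 and 1.21. The counting intervals of Plk2 and Apaf1 lay above the limit of 1, and those of Sesn1, Sesn2 and Pmaip1 included it. With the libraries scaled to the median transcript 0 of 19 were called higher and 1 lower, against 7.59% and 10.1% of all genes. With library sums made equal 5 were called higher and 0 lower, against 19.3% and 4.02% of all genes. The higher ones were Plk2, a kinase of the centrosome cycle, at 8.80 and 20.5 RPKM (log2 fold change 1.21), Apaf1, the scaffold of the apoptosome, at 2.71 and 6.36 RPKM (1.20), Sesn1 at 6.67 and 14.3 RPKM (1.09), Sesn2 at 2.62 and 5.59 RPKM (1.06) and Pmaip1, which encodes the BH3-only protein NOXA, at 1.14 and 2.39 RPKM (1.01). Sesn1 and Sesn2 are sestrins, which restrain mTORC1 under stress. The lower one was Gdf15, a secreted stress factor, at 32.2 RPKM in oil and 15.5 RPKM in CCl4 (-1.05). Zmat3 and Rrm2b were listed at 0 in oil and at 1.78 and 1.59 RPKM in CCl4. Eda2r, Pidd1 and Tnfrsf10b were listed at 0 in both. The median of the list was 0.10, below the 0.30 of all genes. It was -0.23 with the libraries scaled to the median transcript (all genes -0.02) and 0.26 with library sums made equal (all genes 0.46). Among genes with a mean of at least 5 RPKM it was -0.37 (all genes 0.22). With each listed 0 set to the smallest listed value it was 0.07, against 0.0 for all genes, of which 40.9% were listed at 0 in both.

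Of 16 genes that act on p53 or belong to its family, 0 of 11 with a fold were called, against 14.3% higher and 5.48% lower of all genes. Their log2 fold changes ran from -0.16 to 0.79 with a median of 0.41, against 0.30 for all genes, and scaled to the median transcript the median was 0.11, against -0.02. Mdm4, the Mdm2 relative that inhibits p53, was at 6.31 and 6.46 RPKM. Atm, a kinase of the response to DNA breaks, was at 1.30 and 1.90 RPKM. Chek2, the kinase downstream of Atm, was listed at 0 in oil and at 3.24 RPKM in CCl4, and Prkdc at 0 and 1.31 RPKM. Chek1, Trp63 and Trp73 were listed at 0 in both libraries.

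Of 4 kinase inhibitors outside the members, Cdkn1c and Cdkn2c were called higher. Cdkn1c, which encodes p57, was at 1.17 RPKM in oil and 6.17 RPKM in CCl4 (log2 fold change 2.31). Cdkn2c, which encodes the inhibitor p18, was at 2.51 and 9.84 RPKM (1.93). In their list of 19 kinase inhibitors, D and E cyclins and RB and E2F genes, 6 of 15 with a fold were called higher and 0 lower, with a median of 0.87, against 14.3% higher of all genes. Scaled to the median transcript, Cdkn1c and Cdkn2c alone were called, 2 of 15 against 7.59%, with a median of 0.55. The others called were E2f1 at 1.32 and 2.84 RPKM, Rbl1 at 1.04 and 2.23 RPKM, Rb1 at 1.34 and 2.81 RPKM, and Cdk4, the kinase that Cdkn2a and Cdkn2b inhibit, at 14.3 and 28.8 RPKM, just past the fold. Cdkn1b, which encodes p27, was at 8.75 and 17.6 RPKM, just under the fold, and Cdkn2d, which encodes p19, at 4.94 and 7.72 RPKM (0.63). Ccne1, Ccne2, E2f2 and E2f3 were listed at 0 in oil and between 1.14 and 1.68 RPKM in CCl4.

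Most genes of DNA replication and mitosis were higher in CCl4. Of 22, 15 of the 18 with a fold were called higher and 0 lower, against 14.3% and 5.48% of all genes. The median was 1.75, against 0.30 for all genes. Scaled to the median transcript, 12 of 18 were called higher, against 7.59% of all genes. Cdc20, which activates the anaphase ubiquitin ligase, was at 2.43 and 19.9 RPKM (2.98), Ccnb2, a mitotic cyclin, at 1.33 and 8.21 RPKM (2.54), Aurkb, a kinase of chromosome segregation, at 1.05 and 6.20 RPKM (2.45) and Cdk1, the mitotic kinase, at 1.01 and 5.63 RPKM (2.37). Ccnb1, Plk1 and Foxm1 were listed at 0 in oil and at 7.08, 4.18 and 1.90 RPKM in CCl4, and Bub1 at 0 in both. Pcna, a clamp for DNA polymerase and itself a p53 target, was at 28.3 and 53.7 RPKM (0.92). Markers of several other cell types, described further on, were higher in the same library, and their part in these changes was not tested.

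In the BCL2 and caspase list, 4 of 16 with a fold were called higher and 2 lower, against 14.3% and 5.48% of all genes. Scaled to the median transcript, Bmf alone was called higher and 3 genes were called lower, against 7.59% and 10.1%, and the list median of 0.51 became 0.18. The higher ones promote cell death, namely Bmf at 1.64 and 7.03 RPKM (2.04), Bik at 2.51 and 5.87 RPKM (1.20), Bok at 12.3 and 26.0 RPKM (1.08) and Bcl2l11, which encodes BIM, at 3.07 and 6.45 RPKM (1.04). The lower ones were Casp9, the caspase that the apoptosome activates, at 126.0 and 46.6 RPKM (-1.43), and Bcl2l1, whose main product BCL-XL protects from cell death, at 26.7 and 13.2 RPKM (-1.02). Bak1, the partner of Bax in pore formation, was at 5.81 and 11.1 RPKM (0.93). Hrk was listed at 0 in both libraries.

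Among the paralogs of the members, Gadd45g was at 92.4 RPKM in oil and 26.2 RPKM in CCl4, with a log2 fold change of -1.81, and was the 1 gene called of the 4 with a fold, against 5.48% lower of all genes. Gadd45b was at 5.84 and 8.98 RPKM (0.61), Ccng2 at 6.96 and 9.62 RPKM (0.46) and Phlda1 at 6.81 and 4.02 RPKM (-0.75), while Phlda2 was listed at 0 in both libraries. Scaled to the median transcript, Phlda1 was called lower as well, 2 of 4 against 10.1% of all genes.

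Of 13 genes linked to senescence and its secretions, 8 of 10 with a fold were called higher and 1 lower, against 14.3% and 5.48% of all genes. Scaled to the median transcript, 7 were called higher and 1 lower, against 7.59% and 10.1%. Igfbp3 was at 3.52 and 46.5 RPKM (3.69), Ccl2 at 1.13 and 5.35 RPKM (2.14) and Igfbp7 at 175.1 and 613.7 RPKM (1.81). Mmp12 was listed at 0 in oil and at 15.7 RPKM in CCl4. Lmnb1, a lamin gene that is lost in senescent cells, was at 2.02 and 5.39 RPKM (1.37) and so was higher. The chemokine gene Cxcl1 was lower, at 105.0 and 9.27 RPKM (-3.49). Il6 and Mmp3 were listed at 0 in both libraries. The median of the list was 1.47.

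**Figure D3:**
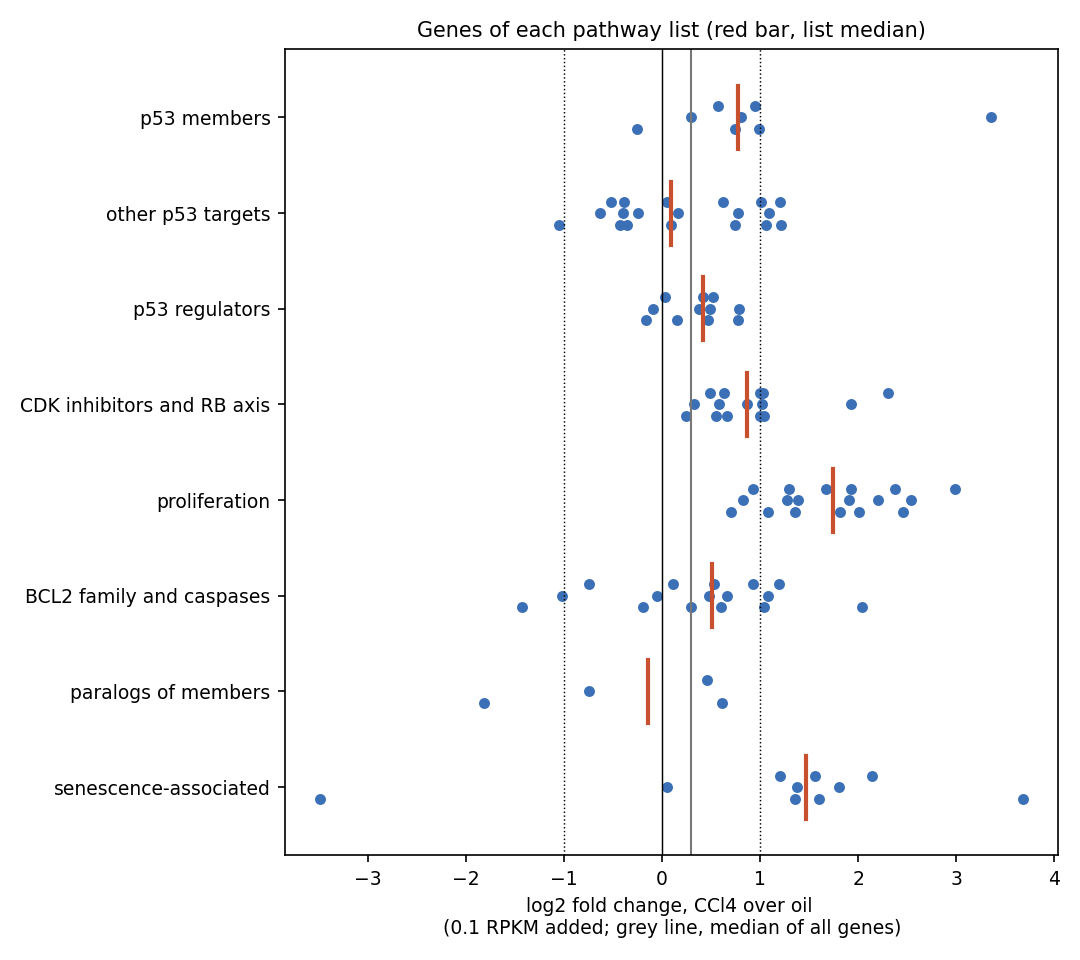
Log2 fold change of CCl4 over oil (0.1 RPKM added) for each gene listed above 0 in both libraries, by list, with the list median as a red bar and the median of all genes as a grey line at 0.30. The replication and mitosis genes lie entirely above 0 with a median of 1.75, whereas the other p53 targets lie on both sides of 0 with a median of 0.10.

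Markers of other cell types moved between the same libraries, and their counts of calls stand against 14.3% higher and 5.48% lower of all genes. All 8 hepatocyte markers were detected in both, with Alb at 8656 and 6476 RPKM, and 5 of them were called lower (median -1.25). All 10 stellate cell and myofibroblast markers were higher in the CCl4 library or listed at 0 only in oil, with 9 called, and their summed level was 77.0 RPKM in oil and 903 RPKM in CCl4. Of the Kupffer cell and macrophage markers, 4 of 7 with a fold were called higher and the sum was 790 and 1499 RPKM, and of the sinusoidal endothelial markers, 2 of 8 and 562 and 970 RPKM. Of the cholangiocyte markers 2 of 4 with a fold were called higher, with a sum of 50.9 and 170.2 RPKM, and of the lymphocyte markers 1 of 4, with a sum of 23.1 and 36.7 RPKM, while Cd3e and Cd8a were listed at 0 in both. The sums of the neutrophil markers were 283 and 158 RPKM and those of the erythroid markers 2051 and 1413 RPKM, with 1 marker called lower in each list. Scaled to the median transcript, the 9 stellate cell and myofibroblast calls were all kept, 1 of 7 Kupffer cell, 0 of 8 endothelial, 1 of 4 cholangiocyte and 1 of 4 lymphocyte markers were called higher, against 7.59% of all genes, and 7 of 8 hepatocyte, 3 of 3 neutrophil and 1 of 3 erythroid markers were called lower, against 10.1%. The part of these cell types in the changes of Cdkn1c and of the senescence-linked genes was not tested either, and in such bulk samples more cells of a type and more RNA per cell cannot be told apart.

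**Figure D4:**
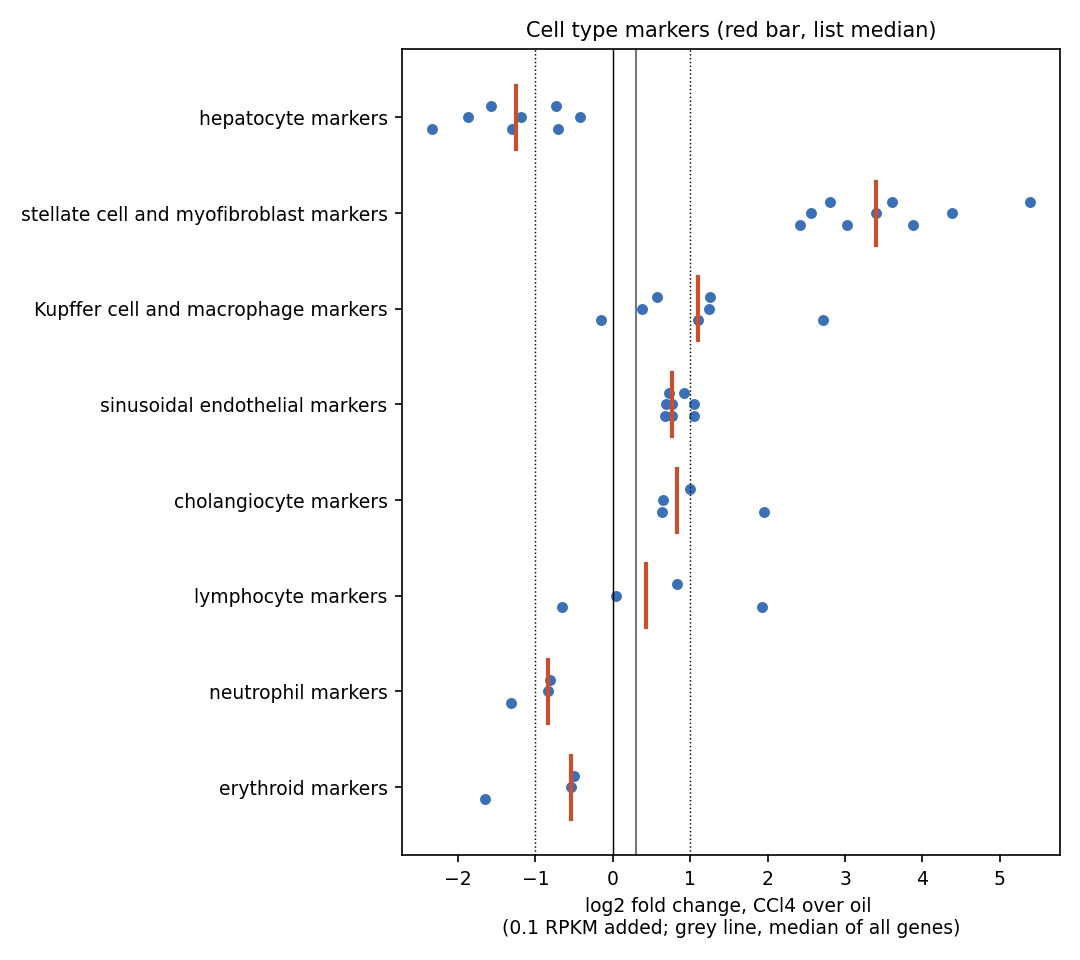
Log2 fold change of CCl4 over oil (0.1 RPKM added) for markers of 8 cell types, by list, with list medians as red bars. The stellate cell and myofibroblast markers lie between 2.42 and 5.39, the hepatocyte markers between -2.33 and -0.42.

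Unannotated lncRNAs near the members were counted as well. Of 12 within 200000 bases of a member, 5 had more reads in CCl4 at a log2 ratio of 1 or more with a counting interval above 0, against 30.9% of all 1443. They lay near Phlda3, Bbc3, Trp53 and Mdm2, and none had more than 97 reads in a library.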

How the data were processed

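RNA sequencing of primary hepatocytes was analysed from the deposited tables, with 1 oil and 1 CCl4 library mapped by their labels. The submitters' processing notes name mm10, CASAVA 1.4 and TopHat2. The counting program, annotation version and strand setting are not given in the sources used here. The deposited RPKM values are reads that the authors scaled to transcript length and library size, with anything short of 1 RPKM listed as 0 in the comparison tables: on the new lncRNAs, which were also deposited without this limit, all 1354 oil and 1347 CCl4 values under 1 RPKM were listed as 0. The deposited counts of the new lncRNAs are whole reads without normalization (42051 in oil and 49397 in CCl4). The authors' own log2 changes, p-values and q-values were not used, so a value listed at 0 was not restored.

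RefSeq identifiers were paired with symbols through the GRCm38.p6 gene table (27049 matched and 408 not), whose chromosome positions are those of mm10. Where a gene had several transcripts, the one with the highest mean RPKM stood for it. The fold change was log2((CCl4 + 0.1) / (oil + 0.1)), called at an absolute value of at least 1, which understates the change of low genes. Read totals were those that gave whole reads for 214 of 221 (oil) and 229 of 236 (CCl4) RefSeq RNAs shorter than 400 bases. Each transcript took the shortest length at which its reads were whole in both libraries, and on 1397 new lncRNAs the reads so recovered equalled the deposited counts in 83.4% and were above them in 0. That check used the totals behind the new lncRNAs, 62438197 and 70960849, so it tests the procedure and not the totals used for mRNAs. Among 32 short mRNAs the totals used here gave whole reads in both libraries for 5 and those of the new lncRNAs for 0, at RefSeq gene lengths that may differ from those used in counting. The reads of members rest on these totals, whereas the log2 fold changes do not. The fold calls and the recovery were tested on simulated data. PCR copies are not independent molecules, so intervals cover counting error only.

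The members and lists were chosen with earlier results of these data known. Named are all members and, of each other list, up to 4 called genes in each direction with the largest change and genes listed at 0; Cdk4, Rb1, Cdkn1b, Cdkn2d, Pmaip1, Mdm4, Atm, Pcna, Bak1, Lmnb1, Alb, the other paralogs and the neighbouring genes were named beyond that rule after their values were seen. The values of 1 gene that the rule would name are not reported here. The alternatives were other pseudocounts, 2 other scalings, a stricter and no filter on low values, a stricter fold and sums over transcripts. Computations ran in Python 3.11.15 with pandas 2.3.3, scipy 1.17.1, numpy 2.4.6 and matplotlib 3.10.9.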

Additional observations from a re-analysis of the deposited data

Results flagged for a closer look

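The unannotated lncRNAs were deposited with reads and lie outside the comparison of the mRNA table. Of the 12 within 200000 bases of a member, 5 had a log2 ratio of reads per library of at least 1 with a counting interval above 0, a share near the 30.9% of all 1443, and they are listed here because they had more reads than the oil control. Their reads are few, the intervals cover counting error only, and each condition has 1 library. TCONS_00005338 (chr1:135661414-135664263, 101822 bases from Phlda3) had 41 reads in oil and 97 in CCl4, a log2 ratio of 1.06. TCONS_00073936 (chr7:16305273-16306318, 2080 bases from Bbc3) had 8 and 22 reads, a log2 ratio of 1.27 with a counting interval from 0.05 to 2.65. TCONS_00015356 (chr11:69413904-69414812, 165536 bases from Trp53) had 8 and 30 reads, a log2 ratio of 1.72. TCONS_00009811 and TCONS_00009810, at 195027 and 175874 bases from Mdm2, had 8 and 27, and 12 and 28 reads, with log2 ratios of 1.57 and 1.04. TCONS_00009182 in the same stretch had 22 reads in oil and 4 in CCl4, a log2 ratio of -2.64, and was named after its values were seen.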

How the results depend on the processing

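No paired analysis was possible because each condition has 1 library, and for the same reason no replicate could be left out. Under the alternatives 338 values stayed within the counting error (for counts, within 1.5 times) of the reported ones, 101 moved and 0 called values reversed; stricter limits lower counts by construction, and what lay behind the other moves was not tested. Scaling the libraries to the median transcript lowered the log2 fold changes to 0.25 for Trp53, -0.58 for Cdkn1a, -0.023 for Mdm2, 0.63 for Ccng1, 0.66 for Bax, 0.48 for Bbc3, 0.43 for Gadd45a and 3.04 for Phlda3, with a member median of 0.46, and the share of calls over all genes that were to higher went from 72.3% to 42.9%. Making the library sums without the 10 most abundant transcripts equal gave 0.74 for Trp53, -0.093 for Cdkn1a, 0.46 for Mdm2, 1.11 for Ccng1 and 1.15 for Bax, with a member median of 0.94, so that 3 of 8 members in place of 1 were called higher, against 19.3% of all genes in place of 14.3%, and 82.8% of the calls over all genes were to higher. With 1 RPKM added Phlda3 was at 2.71. In the other pathway lists 38 genes were called higher and 5 lower, against 14.3% and 5.48% of all genes. These are counts over all those lists together and not shares. Of the 38, 15 were genes of replication and mitosis and 8 were linked to senescence. Median scaling gave 22 higher and 7 lower, against 7.59% and 10.1%. Equal sums gave 42 higher and 3 lower, against 19.3% and 4.02%. When the mean had to reach 5 RPKM, 19 were higher and 5 lower, against 13.9% and 7.57%. Fewer genes could then be compared, for replication and mitosis 11 in place of 18. A log2 limit of 2 left 10 higher and 1 lower, against 1.76% and 0.702%. The listing of values under 1 RPKM as 0, and not depth, leaves Cdkn2a and Cdkn2b without a fold, and depth sets the widths of the counting intervals.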

Other observations

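The genes that flank the members gave values of their own. Csrp1, a LIM domain protein gene 13856 bases from Phlda3, was at 17.8 RPKM in oil and 59.3 in CCl4 (log2 fold change 1.73). Ftl1, the ferritin light chain gene 1809 bases from Bax, was at 1848 and 2810 RPKM (0.61), and Dhdh, 6053 bases from Bax, at 26.1 and 13.8 RPKM (-0.91). Wrap53, 98 bases from Trp53, was at 2.37 and 2.83 RPKM (0.24). Sae1 beside Bbc3 was at 8.97 and 14.3 RPKM (0.67), and Hmmr, a mitotic gene near Ccng1, was listed at 0 in oil and at 2.66 RPKM in CCl4.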
